A study of Mus musculus with 7 samples.

Results

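The genes described here encode receptors that bind cells to the extracellular matrix: 12 integrin α subunits, 7 integrin β subunits, the 4 syndecans, 5 glypicans and 5 other receptors (Cspg4, Ddr1, Ddr2, Cd44 and Dag1). They were chosen by gene name, as a fixed list of 33 names, with earlier results of these data known. All 33 are among the 52459 gene names of the deposited count table, and 29 of them are among the 13367 genes with enough counts to be tested. Bulk RNA sequencing was carried out on primary articular chondrocytes, the cells of joint cartilage, which were taken from the femoral head of mice and grown in medium with serum. The cells received BMP2 at 100 ng/ml (3 libraries, replicates 1, 2 and 3), TGFβ1 at 5 ng/ml (2 libraries, replicates 1 and 3) or vehicle (2 libraries, replicates 1 and 2) for 24 h. The 3 comparisons ask what each ligand does to a receptor gene relative to vehicle, and whether the 2 ligands differ. No genotype, strain, sex or age is given in the labels, and they do not say whether replicates were separate animals or separate cultures, so p-values measure only the spread between these libraries, which may be technical.

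Integrins are heterodimers of an α and a β chain: the α1, α2, α10 and α11 chains pair with β1 and bind collagens, the α3, α6 and α7 chains make laminin receptors, and α5 and αv make receptors for fibronectin, vitronectin and other proteins with an RGD motif. Syndecans cross the membrane and glypicans are held by a lipid anchor, and both carry heparan sulphate chains that bind matrix proteins and growth factors. In cartilage α10β1 is known as a main collagen receptor of chondrocytes, CD44 holds hyaluronan and with it aggrecan around the cell, and integrins with the αv chain can free TGFβ from its latent complex.

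Promoters are shown for 4 genes on which the results turn: Itga10 and Itga11, collagen-receptor chains that moved in opposite directions with TGFβ1, Gpc3, which moved in opposite directions with the 2 ligands, and Sdc3, the syndecan that rose with BMP2. Each is the 250 bases before the RefSeq start (GRCm38.p6, gene strand, 5′ to 3′), at chr3:96645334-96645583 (+) for Itga10, chr9:62677605-62677854 (+) for Itga11, chrX:52613975-52614224 (−) for Gpc3 and chr4:130792287-130792536 (+) for Sdc3. Capitals mark CAGAC, a short site that SMAD proteins bind, on either strand.
Itga10: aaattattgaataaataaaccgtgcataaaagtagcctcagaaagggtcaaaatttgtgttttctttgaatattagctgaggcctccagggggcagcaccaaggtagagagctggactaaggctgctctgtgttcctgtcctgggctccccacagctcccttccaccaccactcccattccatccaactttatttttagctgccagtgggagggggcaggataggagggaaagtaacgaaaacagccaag
Itga11: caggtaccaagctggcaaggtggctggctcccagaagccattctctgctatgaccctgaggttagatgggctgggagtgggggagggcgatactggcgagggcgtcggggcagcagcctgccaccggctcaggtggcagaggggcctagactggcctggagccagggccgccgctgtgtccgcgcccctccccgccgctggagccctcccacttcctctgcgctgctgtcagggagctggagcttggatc
Gpc3: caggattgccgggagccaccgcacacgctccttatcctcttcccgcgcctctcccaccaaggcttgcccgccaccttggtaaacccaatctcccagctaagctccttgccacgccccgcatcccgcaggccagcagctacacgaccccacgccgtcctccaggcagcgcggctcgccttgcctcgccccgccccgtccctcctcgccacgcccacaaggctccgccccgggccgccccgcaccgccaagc
Sdc3: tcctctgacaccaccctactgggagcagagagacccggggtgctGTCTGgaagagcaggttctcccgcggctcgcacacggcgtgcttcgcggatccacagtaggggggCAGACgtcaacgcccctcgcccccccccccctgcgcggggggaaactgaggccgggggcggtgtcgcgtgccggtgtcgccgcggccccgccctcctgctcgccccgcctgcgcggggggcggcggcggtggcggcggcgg
The Sdc3 window held 2 CAGAC matches, and the windows of Itga10, Itga11 and Gpc3 held none. GC content was 48.0% for Itga10, 68.4% for Itga11, 71.6% for Gpc3 and 76.4% for Sdc3. RefSeq promoters were matched for 26 of the 33 genes, with 32 starts in all, and were not matched for Itga6, Itga7, Itgb3, Itgb4, Sdc2, Gpc1 and Gpc6. CAGAC was found on either strand in 37.5% of the 32 starts and in 42.2% of 32851 mouse promoter windows of the same length. The GC-rich SMAD motif GGCGCC was found in 15.6% of the starts and 9.59% of all windows, and the AP-1 site TGAGTCA in 3.12% and 4.46%; the motifs were searched separately, and none lies within another. These matches describe letters in a window and are not evidence of binding.

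Library totals lay between 6747997 and 18047765 counts, with both TGFβ1 libraries the deepest. With TGFβ1 the fold change of all genes against vehicle depended on transcript length, with a median log2 fold change of 2.71 for transcripts of up to 1000 nt and −0.57 for those above 7000 nt. The principal transcripts of the receptor genes are 2216 to 10967 nt long. A fit with an offset for length and GC content, called the length offset below, is therefore given where it changes a call or moves the log2 fold change of a called gene by over 1.5 times. Of 11 chondrocyte markers 10 are in the file, with summed levels of 48148 to 54476 CPM (counts scaled to a common library total) with BMP2, 35516 to 41250 CPM with TGFβ1 and 56129 to 56359 CPM with vehicle. The 13 leukocyte markers summed to 20.6 to 24.3 CPM with BMP2, 69.9 to 72.9 CPM with TGFβ1 and 29.8 to 40.1 CPM with vehicle, of which Ptprc never passed 0.478 CPM and Cd3e was at 0 in every library. The 7 fibroblast markers summed to 10.1 to 14.1 CPM with BMP2, 65.5 to 77.4 CPM with TGFβ1 and 15.7 to 17.1 CPM with vehicle, most of the TGFβ1 sum being Ly6a, and Clec3b was at 0. The part of these cell-type markers in the receptor results was not tested, and in bulk RNA fewer cells of a type and less RNA per cell cannot be told apart. All marker levels are CPM without the length offset. The part of the length trend in their differences between TGFβ1 and the other groups was not tested.

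The receptor repertoire of these chondrocytes was led by syndecans and by the β1 integrin chain. Levels of different genes are compared as RPKM, the CPM per kilobase of the deposited gene length. Sdc4 stood at 91.6 ± 0.781 RPKM with BMP2 (SD, n = 3), 181 ± 1.66 RPKM with TGFβ1 (n = 2) and 100.3 ± 6.86 RPKM with vehicle (n = 2). Itgb1 averaged 96.8 ± 7.61, 89.4 ± 6.35 and 83.3 ± 9.59 RPKM with BMP2, TGFβ1 and vehicle. Of the 33 genes, 21 averaged at least 1 RPKM with BMP2, 21 with TGFβ1 and 22 with vehicle.

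Within each class 1 or 2 genes held most of the signal. Among α chains Itga5, the fibronectin receptor chain, was highest per deposited length in every group, at 15.2 ± 3.91 RPKM with BMP2, 26.0 ± 2.44 RPKM with TGFβ1 and 12.9 ± 0.715 RPKM with vehicle. This order depends on the length used. The deposited length of Itga6 is 9025 nt but its principal transcript is 4310 nt, against 4442 and 4382 nt for Itga5. Mean CPM of Itga6 were above those of Itga5 with BMP2 (72.0 against 67.4) and vehicle (66.3 against 57.2). Per principal transcript Itga6 would therefore have the higher mean in these groups, but not with TGFβ1 (38.4 against 115 CPM). Itgb5 was second among β chains, at 22.0 ± 3.57 RPKM with BMP2, 50.7 ± 2.45 RPKM with TGFβ1 and 25.1 ± 1.37 RPKM with vehicle. Per deposited length the order of the glypicans was not the same in the 3 groups: Gpc6 and Gpc4 were highest with BMP2 (18.7 ± 0.399 and 18.4 ± 0.626 RPKM, within 1 SD of each other), Gpc1 with TGFβ1 (29.4 ± 0.515 RPKM) and Gpc4 with vehicle (25.1 ± 1.93 RPKM). The deposited length of Gpc6 is 9428 nt, against 6425 nt of annotated exons and a principal transcript of 3488 nt. Gpc4 is 2651 nt by each measure. With a shorter length Gpc6 would stand higher, so its place against Gpc4 with BMP2 and vehicle depends on the length used.

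**Figure D1:**
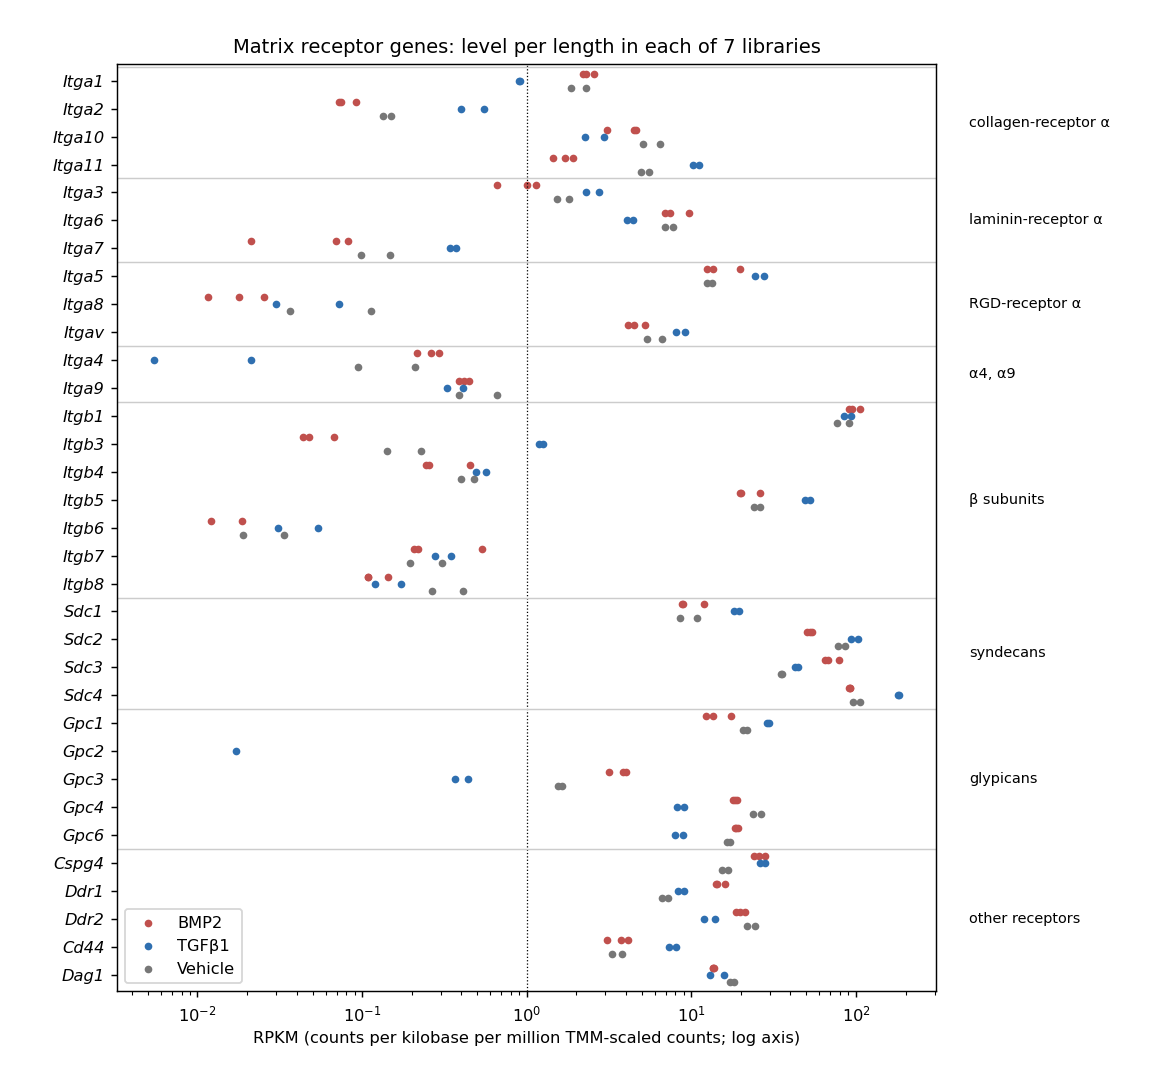
Level per length (RPKM, log axis) of the 33 receptor genes in each of the 7 libraries, grouped by class; each point is a library, the dotted line marks 1 RPKM, and values of 0 (Gpc2 in 6 libraries, Itgb6 in BMP2 replicate 3) cannot be drawn. Sdc4 and Itgb1 have group means of 83.3 to 181 RPKM, while Itga8, Itgb6 and Gpc2 lie at or below 0.2 RPKM.

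The plot of levels by class includes 4 genes that had too few counts to be tested. Itga8 had 1 to 7 reads per library, Itgb6 0 to 5 reads and Itgb7, a lymphocyte integrin chain, 4 to 13 reads. Gpc2 had 1 read in TGFβ1 replicate 1 and none in the other 6 libraries, where a count of 0 allows up to 3 reads, or 0.229 to 0.401 CPM. That limit covers counting error only. Of the 29 tested genes, Itga2, Itga7 and Itgb3 did not reach the CPM minimum of the filter in any BMP2 library. Itga4 and Gpc3 did not reach it in any TGFβ1 library, so these 5 passed through the groups where they are higher. The minimum is 1.02 CPM, or 10 counts at the median library total. It applies to library totals before TMM scaling, whereas the CPM printed here are TMM-scaled.

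TGFβ1 changed 22 of the 29 tested receptor genes relative to vehicle, 13 upward and 9 downward, a share of 75.9% against 56.2% of all tested genes (30.4% up and 25.8% down). BMP2 changed 11 of 29 relative to vehicle, 4 upward and 7 downward, a share of 37.9% against 11.5% of all tested genes (5.33% up and 6.15% down). Between the ligands 24 of 29 differed, 10 higher and 14 lower with BMP2 than with TGFβ1, a share of 82.8% against 61.4% of all tested genes (28.1% higher and 33.3% lower). A gene was called where its edgeR adjusted p over all tested genes was under 0.05. The 29 genes include the 5 that passed the filter through groups where they are higher. They were chosen with earlier results of these data known, so their shares are a description only. The median log2 fold change of the 29 genes was −0.21 for BMP2 against vehicle, 0.31 for TGFβ1 against vehicle and −0.27 for BMP2 against TGFβ1, and that of all tested genes was 0.00, −0.02 and −0.02. CPM ranges did not overlap between BMP2 and vehicle for 72.4% of the tested receptor genes and 44.6% of all genes. They did not overlap between TGFβ1 and vehicle for 93.1% and 80.1%, and between BMP2 and TGFβ1 for 82.8% and 73.7%.

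The 2 comparisons against vehicle share their vehicle libraries, so the calls are given side by side. Itga3, Itga11, Itgb3 and Gpc1 fell with BMP2 and rose with TGFβ1. Gpc3 rose with BMP2 and fell with TGFβ1. Cspg4 rose with both ligands, and Gpc4 and Itgb8 fell with both. Itga9, Itgb1, Itgb4 and Dag1 passed the threshold against vehicle with neither ligand. The number of BMP2 calls fell to 6 without BMP2 replicate 2 and 7 without BMP2 replicate 3. It was also lower without either vehicle replicate. The share of all tested genes called in those smaller fits was not computed, so the drop is no result about the receptor genes. Itga11, Sdc3, Gpc3 and Ddr1 were called for BMP2 against vehicle whichever of the 7 libraries was left out.

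**Figure D2:**
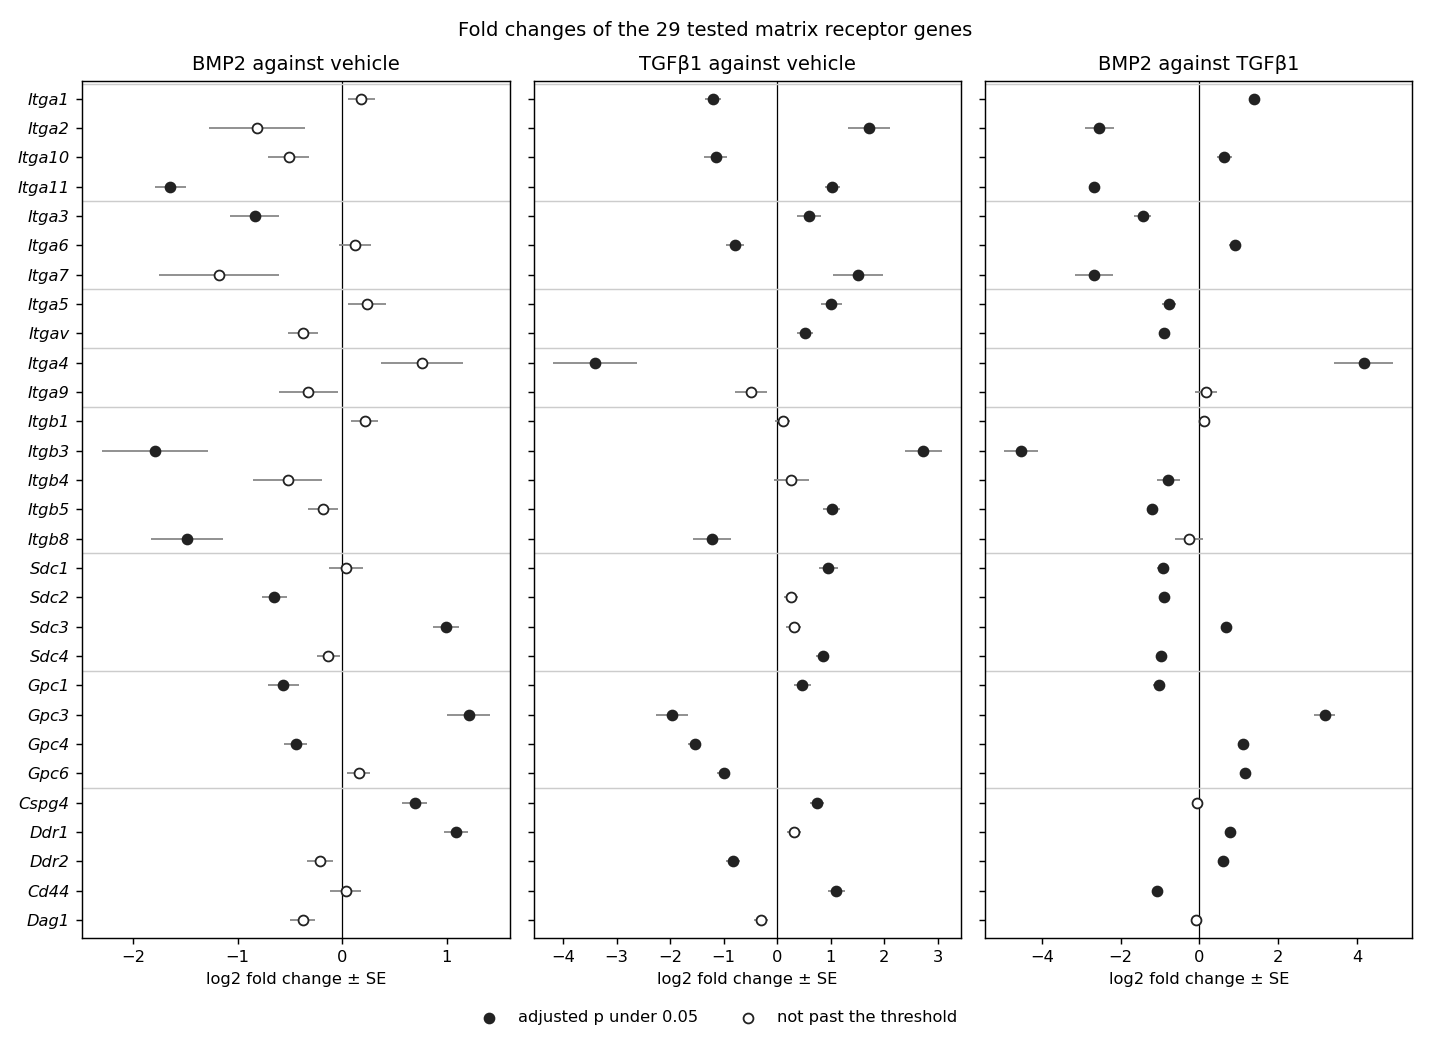
Log2 fold change with its SE for the 29 tested receptor genes in the 3 comparisons (x axes differ in range); filled points passed an adjusted p of 0.05 in edgeR and open points did not. The largest values are those of Itgb3 (−4.52) and Itga4 (4.17) for BMP2 against TGFβ1. Both genes passed the filter only through groups where they are higher. Each BMP2 library held 3 Itgb3 reads, and the TGFβ1 libraries held 4 reads and 1 read of Itga4.

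The collagen-receptor α chains changed in opposite directions with TGFβ1: Itga2 and Itga11 rose, and Itga1 and Itga10 fell. With BMP2, Itga11 fell relative to vehicle and the other 3 were not called. Itga11 (chr9:62677826-62783982, + strand, mm10), a chain best known from fibroblasts, had 7.38, 8.75 and 9.78 CPM with BMP2, 52.5 and 57.4 CPM with TGFβ1 and 25.3 and 28.5 CPM with vehicle. No 2 groups overlapped, with BMP2 lowest and TGFβ1 highest. Its log2 fold change was −1.64 ± 0.15 (SE; adjusted p = 8.29e-05) for BMP2 against vehicle, 1.03 ± 0.14 (adjusted p = 0.000166) for TGFβ1 against vehicle and −2.67 ± 0.14 (adjusted p = 5.63e-08) for BMP2 against TGFβ1.

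Itga10 (chr3:96645584-96664519, + strand), the chain of the type II collagen receptor of chondrocytes, had 16.0, 23.2 and 23.9 CPM with BMP2, 15.2 and 11.7 CPM with TGFβ1 and 33.3 and 26.4 CPM with vehicle. Every treated library lay below both vehicle libraries, and the BMP2 libraries lay above those with TGFβ1. Itga10 fell by 1.15 ± 0.22 on the log2 scale with TGFβ1 (adjusted p = 0.00118). With BMP2 its log2 fold change against vehicle was −0.51 ± 0.20 (adjusted p = 0.128). It was higher with BMP2 than with TGFβ1 by 0.64 ± 0.20 (adjusted p = 0.0183), a call lost without BMP2 replicate 2 (0.57), BMP2 replicate 3 (0.53) or TGFβ1 replicate 3 (0.45). Of the exon bases of Itga10, 33.5% are shared on the same strand with Gm42957, which had 1 to 4 reads per library.

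Itga1 and Itga2 are neighbours on chromosome 13 (114953096-115101964 and 114833081-114932100, both on the − strand) and moved in opposite directions with TGFβ1. Itga1 had 42.6, 40.8 and 47.9 CPM with BMP2, 16.8 and 16.9 CPM with TGFβ1 and 42.8 and 34.4 CPM with vehicle. The TGFβ1 libraries were the lowest, and the BMP2 and vehicle libraries overlapped. Itga1 fell by 1.20 ± 0.15 on the log2 scale with TGFβ1 (adjusted p = 6.11e-05), and its principal transcript of 10967 nt is the longest of the 33, so that the length offset gave −0.61 (adjusted p = 0.003). It was higher with BMP2 than with TGFβ1 by 1.38 ± 0.13 (adjusted p = 8.65e-06), or 0.84 with the length offset. Itga2, which with β1 forms a receptor of platelets and epithelia as well, had 0.515, 0.530 and 0.658 CPM with BMP2, 3.90 and 2.83 CPM with TGFβ1 and 1.07 and 0.957 CPM with vehicle. The 3 groups did not overlap, and each BMP2 library held 4 to 7 reads. Itga2 rose by 1.72 ± 0.39 with TGFβ1 (adjusted p = 0.00239), had a log2 fold change of −0.81 ± 0.46 with BMP2 (adjusted p = 0.304), and was lower with BMP2 than with TGFβ1 (−2.54 ± 0.37, adjusted p = 8.8e-05).

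The plot of class make-up shows how the collagen-receptor α chains were shared out per length in each library. Itga11 made up 20.6% ± 0.364 of their summed RPKM with BMP2, 72.9% ± 4.17 with TGFβ1 and 39.8% ± 5.81 with vehicle. Itga10 made up 49.3% ± 4.11 with BMP2, 17.7% ± 3.41 with TGFβ1 and 43.4% ± 4.37 with vehicle, and Itga1 29.1% ± 3.74, 6.16% ± 0.0150 and 15.7% ± 1.42. The sum itself was 8.17 ± 1.17 RPKM with BMP2, 14.7 ± 0.0981 RPKM with TGFβ1 and 13.2 ± 0.824 RPKM with vehicle. Shares and sums here and below are without the length offset, which brought the TGFβ1 fall of Itga1 from 1.20 to 0.61. They also depend on the length used. The deposited length of Itga1 is 18599 nt, against a principal transcript of 10967 nt. For Itga10 the lengths are 5186 and 5035 nt, and for Itga11 5131 and 4969 nt. Per principal transcript the share of Itga1 would be higher, and with BMP2 nearer to that of Itga10.

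**Figure D3:**
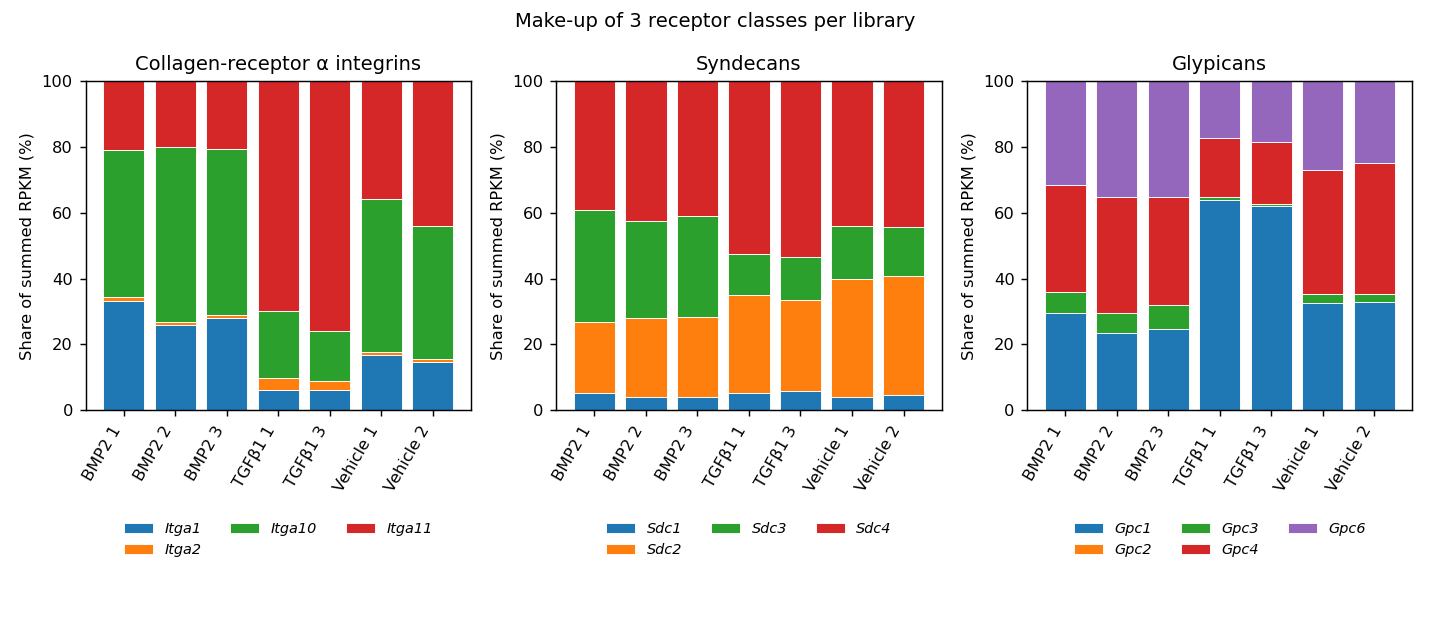
Share (%) of the summed RPKM of the collagen-receptor α chains, the syndecans and the glypicans held by each gene, in each of the 7 libraries. Itga11 and Gpc1 hold the largest shares of their classes in both TGFβ1 libraries (72.9% and 62.8% on average), and Sdc3 holds 31.3% of the syndecan sum with BMP2 against 15.6% with vehicle. Shares use the deposited gene lengths, without the length offset.

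Among the laminin-receptor α chains, Itga6 fell and Itga3 and Itga7 rose with TGFβ1. Itga6, the α chain of the α6β1 and α6β4 laminin receptors, had 87.2, 66.6 and 62.2 CPM with BMP2, 36.6 and 40.2 CPM with TGFβ1 and 62.4 and 70.1 CPM with vehicle. Both TGFβ1 libraries lay below all others, and the BMP2 and vehicle ranges overlapped. Itga6 fell by 0.79 ± 0.17 with TGFβ1 (adjusted p = 0.00239) and was 0.91 ± 0.15 higher with BMP2 than with TGFβ1 (adjusted p = 0.000476), while its value for BMP2 against vehicle was 0.12 ± 0.15 (adjusted p = 0.676).

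Itga3 had 6.52, 5.70 and 3.76 CPM with BMP2, 13.2 and 15.7 CPM with TGFβ1 and 8.69 and 10.3 CPM with vehicle, and the 3 groups did not overlap. It fell with BMP2 (−0.84 ± 0.23, adjusted p = 0.0439) and rose with TGFβ1 (0.60 ± 0.23, adjusted p = 0.0448), both near the threshold. The BMP2 call was lost without BMP2 replicate 2 (−0.88), BMP2 replicate 3 (−0.63), vehicle replicate 1 (−0.95) or vehicle replicate 2 (−0.70) and in DESeq2 (−0.82, adjusted p = 0.0566). The TGFβ1 call was lost without BMP2 replicate 2 (0.60), TGFβ1 replicate 3 (0.47), vehicle replicate 1 (0.44) or vehicle replicate 2 (0.73) and in DESeq2 (0.60, adjusted p = 0.0864). The difference between the ligands, −1.43 ± 0.22 for BMP2 against TGFβ1 (adjusted p = 0.000176), was called whichever library was left out.

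Itga7, a chain best known from muscle, had 0.172, 0.663 and 0.564 CPM with BMP2, 3.02 and 2.75 CPM with TGFβ1 and 0.802 and 1.20 CPM with vehicle. The groups did not overlap, and the BMP2 libraries held 2 to 6 reads. It rose by 1.51 ± 0.47 with TGFβ1 (adjusted p = 0.0141), a call lost without TGFβ1 replicate 1 (1.44) or vehicle replicate 1 (1.22), and was lower with BMP2 than with TGFβ1 (−2.68 ± 0.48, adjusted p = 0.000316), with −1.17 ± 0.57 for BMP2 against vehicle (adjusted p = 0.226). Per length, Itga6 made up 89.0% ± 1.63 of the laminin-receptor α sum with BMP2, 59.7% ± 0.816 with TGFβ1 and 80.5% ± 0.763 with vehicle, and Itga3 10.3% ± 1.59, 35.3% ± 1.54 and 18.2% ± 0.509. The 6 skeletal muscle markers summed to 8.56 to 14.3 CPM with BMP2, 29.6 to 38.1 CPM with TGFβ1 and 8.29 to 17.7 CPM with vehicle, nearly all of it Tnnt3, which had 7.99 to 13.0 CPM with BMP2, 37.6 and 29.6 CPM with TGFβ1 and 8.16 and 17.2 CPM with vehicle. Myh4 was at 0 in every library, and Acta1, Myh1, Ckm and Mb were at or near 0 with TGFβ1 (0 to 0.441 CPM). The part of these markers in the Itga7 value was not tested.

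Both tested RGD-receptor α chains rose with TGFβ1. Itga5 (chr15:103344286-103366763, − strand) had 87.2, 55.0 and 59.9 CPM with BMP2, 108 and 123 CPM with TGFβ1 and 55.0 and 59.4 CPM with vehicle. BMP2 replicate 1 stood above the other BMP2 libraries, and both TGFβ1 libraries stood above all others. Itga5 rose by 1.01 ± 0.20 with TGFβ1 (adjusted p = 0.00151) and was lower with BMP2 than with TGFβ1 (−0.77 ± 0.18, adjusted p = 0.00311), with 0.24 ± 0.18 for BMP2 against vehicle (adjusted p = 0.466).

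Itgav, the chain shared by the receptors that bind latent TGFβ, had 56.5, 44.1 and 48.3 CPM with BMP2, 86.7 and 98.4 CPM with TGFβ1 and 57.8 and 71.4 CPM with vehicle. The 3 groups did not overlap. It rose by 0.52 ± 0.15 with TGFβ1 (adjusted p = 0.0152), or 1.01 with the length offset, and the call was lost without TGFβ1 replicate 3 (0.43) or vehicle replicate 1 (0.33). For BMP2 against vehicle it had −0.38 ± 0.14 (adjusted p = 0.124) and was called without BMP2 replicate 1 (−0.48). BMP2 and TGFβ1 differed by −0.89 ± 0.14 (adjusted p = 0.000249), or −1.34 with the length offset.

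The α4 chain, which binds fibronectin and VCAM1 and is best known from leukocytes, was close to 0 with TGFβ1. Itga4 had 3.69, 4.11 and 3.01 CPM with BMP2, 0.294 and 0.0764 CPM with TGFβ1 and 2.94 and 1.32 CPM with vehicle. The TGFβ1 libraries held 4 reads and 1 read and lay below all others, and the BMP2 libraries lay above both vehicle libraries. Itga4 fell by 3.40 ± 0.78 with TGFβ1 (adjusted p = 0.00111), was higher with BMP2 than with TGFβ1 by 4.17 ± 0.74 (adjusted p = 7.07e-05), and had 0.77 ± 0.39 for BMP2 against vehicle (adjusted p = 0.25). The size rests on single libraries: the value for TGFβ1 against vehicle became −4.56 when TGFβ1 replicate 1 was left out and −2.78 when either TGFβ1 replicate 3 or vehicle replicate 1 was, and for BMP2 against TGFβ1 leaving out TGFβ1 replicate 1 gave 5.33 and leaving out TGFβ1 replicate 3 gave 3.54. All of these passed the threshold. The summed leukocyte markers given above were highest with TGFβ1, but the single markers differed. Tyrobp had 0.944 to 1.88 CPM with BMP2, 13.4 and 16.0 CPM with TGFβ1 and 1.74 and 1.55 CPM with vehicle, and Fcer1g and Cd52 were also highest with TGFβ1. The macrophage marker Adgre1 had 0.376 to 0.928 CPM with BMP2, 0.589 and 0.305 CPM with TGFβ1 and 1.74 and 1.20 CPM with vehicle, and Csf1r and Itgam were likewise lower in both TGFβ1 libraries than in both vehicle libraries. Itgam stayed at or below 0.663 CPM in every library. Cd68, another macrophage marker, was higher with TGFβ1 (8.24 and 4.58 CPM) than with vehicle (2.01 and 2.27 CPM), as was Laptm5. Of the 8 tested leukocyte markers, 4 were called up and 1 down with TGFβ1 against vehicle. These marker values are without the length offset, and the part of transcript length in their differences was not tested. Itga9, which binds tenascin C and osteopontin, had 3.00, 3.45 and 3.20 CPM with BMP2, 3.16 and 2.52 CPM with TGFβ1 and 5.08 and 2.99 CPM with vehicle, and passed the threshold in none of the 3 comparisons (log2 fold changes of −0.32 ± 0.28, −0.49 ± 0.30 and 0.17 ± 0.28; adjusted p = 0.533, 0.192 and 0.62 in edgeR).

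Among β chains, Itgb3 and Itgb5 rose with TGFβ1 while Itgb1, the common partner, was not called in any comparison. Itgb1 (chr8:128685654-128733200, + strand) had 429.7, 386 and 369.7 CPM with BMP2, 347 and 383 CPM with TGFβ1 and 312 and 368 CPM with vehicle. Its log2 fold change was 0.22 ± 0.13 for BMP2 against vehicle (adjusted p = 0.336), 0.10 ± 0.14 for TGFβ1 against vehicle (adjusted p = 0.558) and 0.11 ± 0.13 for BMP2 against TGFβ1 (adjusted p = 0.465). The TGFβ1 value turned to −0.06 without vehicle replicate 1, and with the length offset it was 0.34 (edgeR adjusted p = 0.0524). The value between the ligands turned to −0.15 with the length offset.

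Itgb3 (chr11:104608000-104670476, + strand), the β chain of the αvβ3 vitronectin receptor of osteoclasts and of the platelet receptor αIIbβ3, had 0.257, 0.398 and 0.282 CPM with BMP2, 6.99 and 7.41 CPM with TGFβ1 and 1.34 and 0.837 CPM with vehicle. Each BMP2 library held 3 reads, against 95 and 97 reads in those with TGFβ1 and 10 and 7 reads in those with vehicle, and no 2 groups overlapped. Itgb3 rose by 2.73 ± 0.35 with TGFβ1 (adjusted p = 3.54e-05) and was lower with BMP2 than with TGFβ1 (−4.52 ± 0.43, adjusted p = 6.77e-07). It fell by 1.79 ± 0.51 with BMP2 relative to vehicle (adjusted p = 0.0373), a call lost in DESeq2 (−1.81, adjusted p = 0.0859) and with any 1 of the 7 libraries left out (−2.10 without vehicle replicate 2 to −1.43 without vehicle replicate 1). Osteoclast markers summed to 101 to 141 CPM with BMP2, 121 to 125 CPM with TGFβ1 and 88.9 to 94.1 CPM with vehicle, nearly all of it Ctsk. Acp5 had 1.54 to 1.99 CPM with BMP2, 4.63 and 4.12 CPM with TGFβ1 and 3.34 and 2.27 CPM with vehicle, Dcstamp and Ocstamp were at or near 0, and Calcr was at 0 in every library.

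Itgb5, which pairs with αv to bind vitronectin, had 87.9, 67.7 and 66.6 CPM with BMP2, 165 and 176 CPM with TGFβ1 and 81.0 and 87.6 CPM with vehicle. TGFβ1 stood apart from both other groups, which overlapped. It rose by 1.02 ± 0.15 with TGFβ1 (adjusted p = 0.000258), had −0.18 ± 0.14 for BMP2 against vehicle (adjusted p = 0.457) and was lower with BMP2 than with TGFβ1 (−1.20 ± 0.14, adjusted p = 2.62e-05). Itgb5 made up 18.3% ± 1.28 of the summed β-chain RPKM with BMP2, 35.6% ± 0.507 with TGFβ1 and 22.9% ± 1.08 with vehicle, and Itgb1 81.0% ± 1.07, 62.8% ± 0.532 and 75.9% ± 1.03.

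Itgb8, whose αvβ8 receptor activates latent TGFβ, fell with both ligands. It had 1.20, 1.19 and 1.60 CPM with BMP2, 1.32 and 1.91 CPM with TGFβ1 and 2.94 and 4.55 CPM with vehicle, with every treated library below both vehicle libraries. It fell by 1.48 ± 0.34 with BMP2 (adjusted p = 0.0173), a call lost without BMP2 replicate 2 (−1.43) or vehicle replicate 2 (−1.13). It fell by 1.22 ± 0.35 with TGFβ1 (adjusted p = 0.0122), a call lost without TGFβ1 replicate 1 (−0.97), without vehicle replicate 2 (−0.86) and with the length offset (−0.57, adjusted p = 0.189). Itgb4, the partner of α6 in epithelia, had 1.72 to 3.18 CPM with BMP2, 3.46 to 3.97 CPM with TGFβ1 and 2.81 to 3.35 CPM with vehicle. It was lower with BMP2 than with TGFβ1 (−0.79 ± 0.30, adjusted p = 0.0387), but the call was lost with the length offset (−0.73, adjusted p = 0.0578), in DESeq2 (−0.75, adjusted p = 0.121) and with any 1 library other than BMP2 replicate 2 left out (−0.63 without BMP2 replicate 1, −0.66 without BMP2 replicate 3, −0.89 and −0.69 without TGFβ1 replicates 1 and 3, −0.74 and −0.78 without vehicle replicates 1 and 2).

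**Figure D4:**
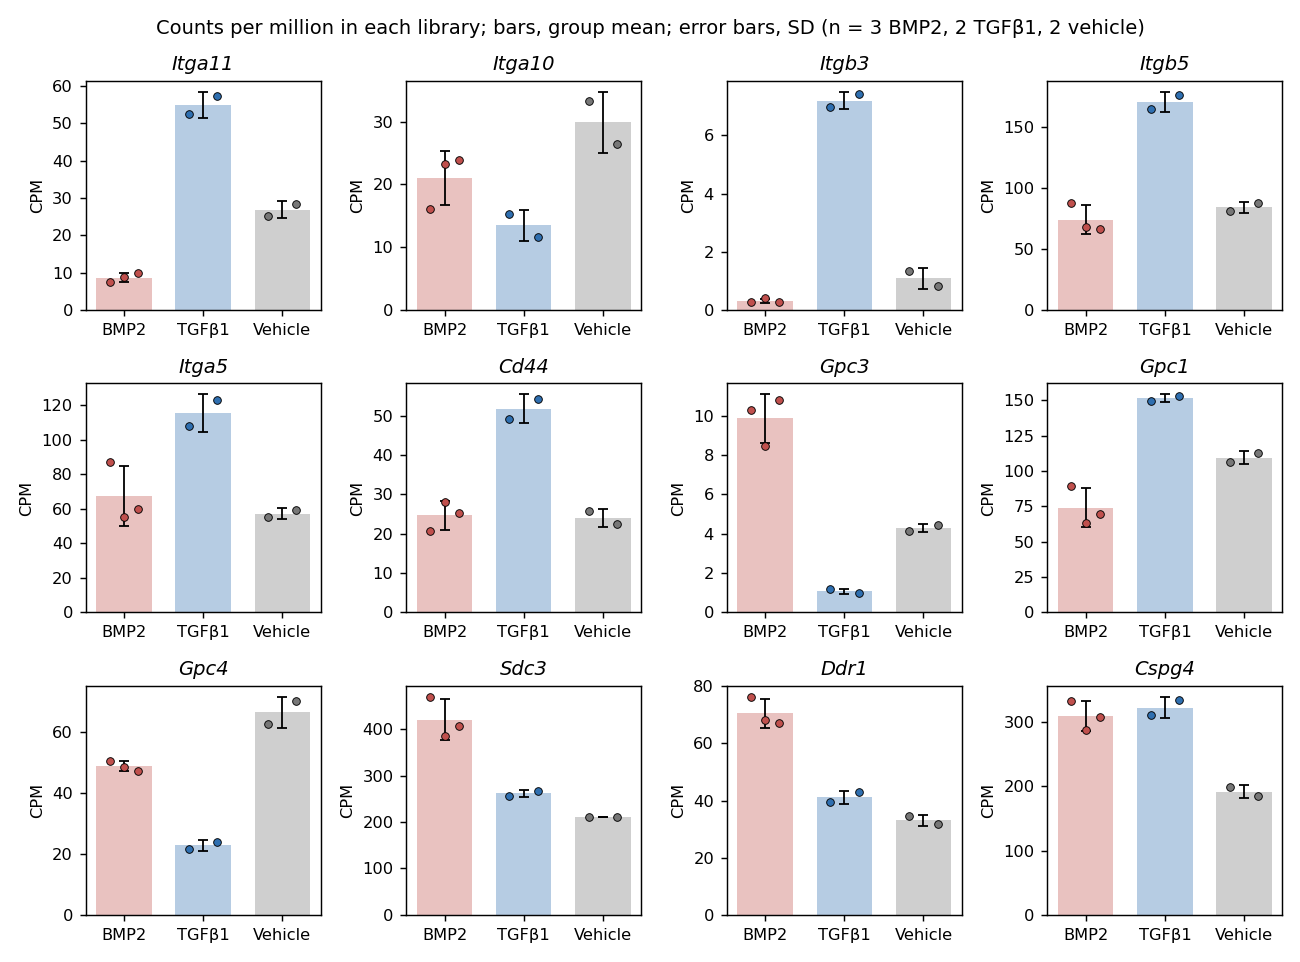
CPM of 12 receptor genes in each library; points are libraries, bars the group means and error bars the SD (n = 3 with BMP2, 2 with TGFβ1, 2 with vehicle). Itga11, Itgb3, Itgb5, Itga5, Cd44 and Gpc1 are highest with TGFβ1, while Gpc3, Sdc3 and Ddr1 are highest with BMP2.

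The plot of CPM by library sets 12 of the genes side by side, each on its own axis. The 4 syndecans divided between the ligands: Sdc1 and Sdc4 rose with TGFβ1, Sdc3 rose with BMP2 and Sdc2 fell with BMP2. Sdc4 (chr2:164424247-164443887, − strand), the syndecan of focal adhesions, had 232, 235 and 233 CPM with BMP2, 463 and 457 CPM with TGFβ1 and 243 and 268 CPM with vehicle. The TGFβ1 libraries were far above the rest. Sdc4 rose by 0.85 ± 0.12 with TGFβ1 (adjusted p = 0.000186), was lower with BMP2 than with TGFβ1 (−0.98 ± 0.11, adjusted p = 2.25e-05) and had −0.13 ± 0.11 for BMP2 against vehicle (adjusted p = 0.51). Sdc1, the main syndecan of epithelia, had 45.7, 34.1 and 33.3 CPM with BMP2, 68.9 and 74.1 CPM with TGFβ1 and 32.5 and 41.3 CPM with vehicle. It rose by 0.95 ± 0.18 with TGFβ1 (adjusted p = 0.000995) and was lower with BMP2 than with TGFβ1 (−0.92 ± 0.16, adjusted p = 0.000449), and the BMP2 and vehicle ranges overlapped. Epithelial markers stayed at or below a sum of 1.83 CPM in every library.

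Sdc3 (chr4:130792537-130826319, + strand), whose promoter window is shown above, is a syndecan of nerve and of developing cartilage. It had 469.6, 386 and 406 CPM with BMP2, 255 and 268 CPM with TGFβ1 and 212 and 211 CPM with vehicle. No 2 groups overlapped, with BMP2 highest and vehicle lowest. Sdc3 rose by 0.99 ± 0.12 with BMP2 (adjusted p = 0.000727) and was 0.69 ± 0.12 higher with BMP2 than with TGFβ1 (adjusted p = 0.000736). For TGFβ1 against vehicle it had 0.31 ± 0.13 (adjusted p = 0.0745), which was called without BMP2 replicate 1 (0.31). Sdc2, the syndecan of mesenchymal cells, had 167, 174 and 181 CPM with BMP2, 342 and 309 CPM with TGFβ1 and 258 and 285 CPM with vehicle, again with no overlap but with BMP2 lowest. It fell by 0.65 ± 0.12 with BMP2 (adjusted p = 0.00511), a call lost without vehicle replicate 2 (−0.57), and was lower with BMP2 than with TGFβ1 (−0.91 ± 0.12, adjusted p = 5.79e-05). For TGFβ1 against vehicle Sdc2 had 0.26 ± 0.13 (adjusted p = 0.103), and with the length offset 0.52 (adjusted p = 0.0049).

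The summed syndecan level was 224 ± 6.81 RPKM with BMP2, 341 ± 6.27 RPKM with TGFβ1 and 227 ± 14.1 RPKM with vehicle. Sdc3 made up 31.3% ± 2.27 of that sum with BMP2, 12.8% ± 0.652 with TGFβ1 and 15.6% ± 0.995 with vehicle, and Sdc2 23.4% ± 1.48, 28.7% ± 1.52 and 36.0% ± 0.265. The BMP2 and vehicle sums thus lay within 1 SD of each other while the share of Sdc3 did not.

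Of the glypicans, Gpc3, Gpc4 and Gpc6 fell and Gpc1 rose with TGFβ1. Gpc3 and Gpc4 are neighbours on the X chromosome (52272426-52613950 and 52053021-52165252, both on the − strand). Gpc3, which is known to restrain hedgehog signalling and body growth, had 10.3, 8.48 and 10.8 CPM with BMP2, 1.18 and 0.993 CPM with TGFβ1 and 4.15 and 4.43 CPM with vehicle. The 3 groups lay far apart, with BMP2 highest and TGFβ1 lowest. Gpc3 rose by 1.21 ± 0.21 with BMP2 (adjusted p = 0.00385), fell by 1.97 ± 0.29 with TGFβ1 (adjusted p = 0.000191) and was higher with BMP2 than with TGFβ1 by 3.18 ± 0.26 (adjusted p = 9.95e-07).

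Gpc4 had 50.5, 48.7 and 47.2 CPM with BMP2, 21.6 and 24.1 CPM with TGFβ1 and 62.8 and 70.1 CPM with vehicle, so both treated groups lay below vehicle and TGFβ1 lay lowest. It fell by 0.45 ± 0.11 with BMP2 (adjusted p = 0.0251) and by 1.54 ± 0.12 with TGFβ1 (adjusted p = 2.7e-06), and was higher with BMP2 than with TGFβ1 by 1.10 ± 0.11 (adjusted p = 1.51e-05). The BMP2 call was lost in DESeq2 (−0.42, adjusted p = 0.0841) and without BMP2 replicate 2 (−0.44), BMP2 replicate 3 (−0.42), vehicle replicate 1 (−0.52) or vehicle replicate 2 (−0.36). Gpc6, a glypican in which loss-of-function mutations cause the human skeletal dysplasia omodysplasia, had 176, 174 and 181 CPM with BMP2, 74.7 and 83.3 CPM with TGFβ1 and 161 and 156 CPM with vehicle. It fell by 1.00 ± 0.12 with TGFβ1 (adjusted p = 5.17e-05), had 0.16 ± 0.11 for BMP2 against vehicle (adjusted p = 0.407) and was 1.16 ± 0.11 higher with BMP2 than with TGFβ1 (adjusted p = 7.72e-06).

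Gpc1 had 89.3, 63.4 and 69.5 CPM with BMP2, 149.6 and 153 CPM with TGFβ1 and 106 and 113 CPM with vehicle, the reverse order of the groups to Gpc3. It fell by 0.56 ± 0.15 with BMP2 (adjusted p = 0.0307) and rose by 0.47 ± 0.16 with TGFβ1 (adjusted p = 0.0272). The BMP2 call was lost without BMP2 replicate 2 (−0.46), BMP2 replicate 3 (−0.52), vehicle replicate 1 (−0.60) or vehicle replicate 2 (−0.52), and the TGFβ1 call without TGFβ1 replicate 1 (0.49), TGFβ1 replicate 3 (0.46), vehicle replicate 1 (0.38) or vehicle replicate 2 (0.51). The ligands differed by −1.03 ± 0.14 for BMP2 against TGFβ1 (adjusted p = 0.000112), whichever library was left out. Of the exon bases of Gpc1, 18.9% lie opposite Ankmy1, which had 0 to 4 reads per library. Gpc1 made up 25.9% ± 3.11 of the summed glypican RPKM with BMP2, 62.8% ± 1.27 with TGFβ1 and 32.8% ± 0.0941 with vehicle. These shares use the deposited lengths, and the shorter lengths of Gpc6 given above would lower them.

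The discoidin domain receptors, collagen-binding tyrosine kinases, were each called with a different ligand against vehicle. Ddr1 (chr17:35681567-35704621, − strand) had 76.3, 68.1 and 67.2 CPM with BMP2, 39.6 and 42.8 CPM with TGFβ1 and 34.5 and 31.8 CPM with vehicle, with no overlap between groups. It rose by 1.09 ± 0.12 with BMP2 (adjusted p = 0.00026), was 0.78 ± 0.11 higher with BMP2 than with TGFβ1 (adjusted p = 0.000164) and had 0.31 ± 0.13 for TGFβ1 against vehicle (adjusted p = 0.0546), which was called without BMP2 replicate 1 (0.31). Ddr2, which binds fibrillar collagens including type II, had 173, 183 and 195 CPM with BMP2, 111 and 129.8 CPM with TGFβ1 and 225 and 201 CPM with vehicle. It fell by 0.82 ± 0.13 with TGFβ1 (adjusted p = 0.000462) and was 0.61 ± 0.12 higher with BMP2 than with TGFβ1 (adjusted p = 0.00157), but neither was called with the length offset (−0.25, adjusted p = 0.0956, and 0.13, adjusted p = 0.326). Ddr1 made up 42.7% ± 3.11 of the summed RPKM of the pair with BMP2, 40.0% ± 1.32 with TGFβ1 and 23.2% ± 0.370 with vehicle. These shares are without the length offset. With it, TGFβ1 against vehicle gave 0.19 for Ddr1 and −0.25 for Ddr2, so the shares with TGFβ1 and vehicle would differ less.

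Cspg4, the chondroitin sulphate proteoglycan NG2, rose with both ligands. It had 332, 287 and 307 CPM with BMP2, 310.2 and 334 CPM with TGFβ1 and 198 and 184 CPM with vehicle, so that the ligands overlapped and vehicle lay below. It rose by 0.69 ± 0.12 with BMP2 (adjusted p = 0.00464), a call lost without vehicle replicate 2 (0.64), and by 0.75 ± 0.13 with TGFβ1 (adjusted p = 0.000678). Between the ligands it had −0.06 ± 0.12 (adjusted p = 0.678). Cspg4 also marks pericytes, whose 8 listed markers summed to 1.72 to 3.95 CPM with BMP2, 6.03 to 6.72 CPM with TGFβ1 and 2.14 to 3.23 CPM with vehicle. Most of the TGFβ1 sum was Mcam (3.97 and 4.35 CPM, against 0.535 and 1.08 CPM with vehicle). No other marker of the list passed 1.46 CPM in any library, and Notch3 was lower in both TGFβ1 libraries than in both vehicle libraries.

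Cd44, the hyaluronan receptor, had 20.8, 28.0 and 25.4 CPM with BMP2, 49.3 and 54.4 CPM with TGFβ1 and 25.7 and 22.5 CPM with vehicle. The TGFβ1 libraries stood above all others, which overlapped. It rose by 1.11 ± 0.16 with TGFβ1 (adjusted p = 0.000172), was lower with BMP2 than with TGFβ1 (−1.08 ± 0.14, adjusted p = 6.47e-05) and had 0.03 ± 0.15 for BMP2 against vehicle (adjusted p = 0.925). Dag1, dystroglycan, the laminin and perlecan receptor, had 87.5, 86.4 and 86.0 CPM with BMP2, 82.2 and 101 CPM with TGFβ1 and 109 and 116 CPM with vehicle. It lay below vehicle in every treated library but was not called (−0.38 ± 0.12, adjusted p = 0.0653, with BMP2 and −0.30 ± 0.13, adjusted p = 0.0688, with TGFβ1). The BMP2 value of Dag1 was called without TGFβ1 replicate 1 (−0.38) or 3 (−0.38) and in a fit of only the 2 groups (−0.37), and the TGFβ1 value without BMP2 replicate 1 (−0.30) or TGFβ1 replicate 3 (−0.45).

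**Figure D5:**
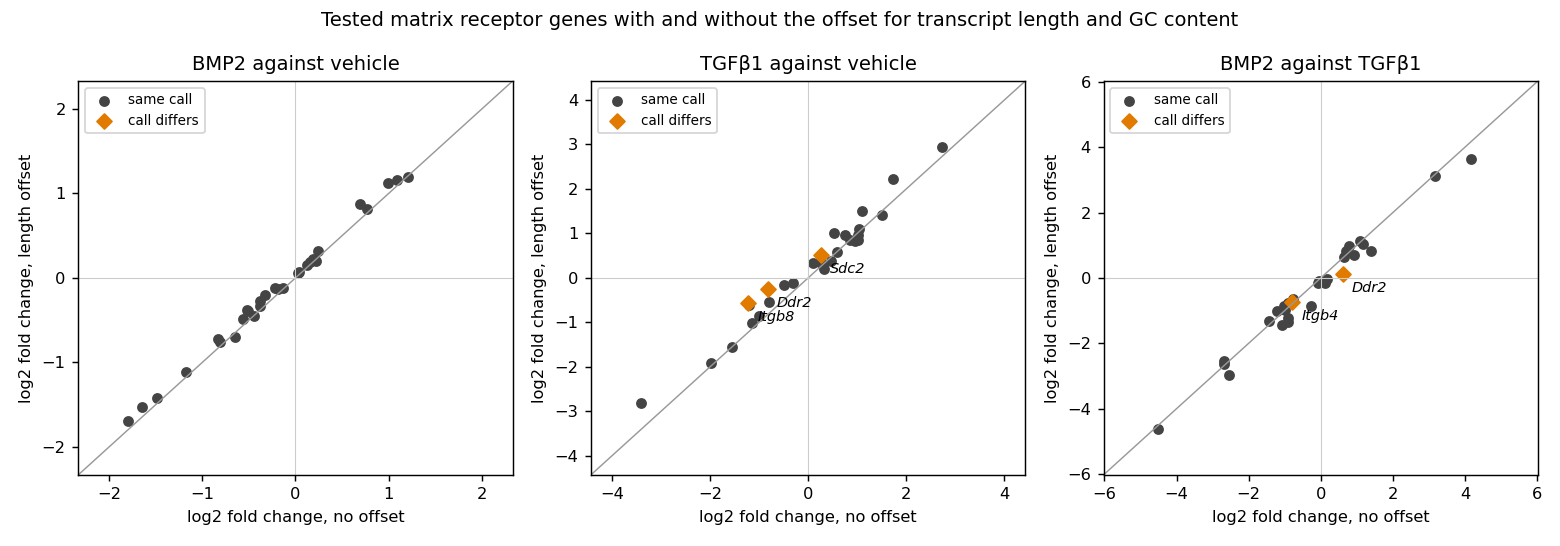
Log2 fold change of the 29 tested receptor genes with the offset for transcript length and GC content (y axis) against that without it (x axis) in the 3 comparisons; diamonds mark genes whose call differs. Calls differ for Ddr2, Itgb8 and Sdc2 with TGFβ1 against vehicle and for Ddr2 and Itgb4 with BMP2 against TGFβ1.

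With the length offset the counts of receptor genes were 4 up and 7 down for BMP2 against vehicle, 14 up and 7 down for TGFβ1 against vehicle and 9 up and 13 down for BMP2 against TGFβ1. Of all genes fitted with the offset, 13.2% were called for BMP2 against vehicle (6.87% up and 6.34% down), 49.0% for TGFβ1 against vehicle (25.3% up and 23.8% down) and 55.7% for BMP2 against TGFβ1 (27.6% up and 28.1% down). As the plot of fold changes with and without the offset shows, all 29 calls for BMP2 against vehicle were the same in both fits, and 26 and 27 of the 29 were the same for TGFβ1 against vehicle and BMP2 against TGFβ1.

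The matrix ligands of these receptors were described by a list of 48 genes, of which 44 were tested. With BMP2 against vehicle 11 rose and 15 fell, with TGFβ1 against vehicle 15 rose and 14 fell, and 20 were higher and 17 lower with BMP2 than with TGFβ1. These are 59.1%, 65.9% and 84.1% of the tested genes of the list, against 11.5%, 56.2% and 61.4% of all tested genes. The median log2 fold changes of the list were 0.11, −0.07 and 0.19. This list and those below were chosen with earlier results of these data known. For them too, the share of all tested genes called with a library left out was not computed. Its BMP2 count of 26 was 15 without vehicle replicate 1 and 12 without vehicle replicate 2. With BMP2, Tgfbi, an integrin-binding matrix protein, averaged 458 ± 40.0 CPM against 139.6 ± 10.8 CPM with vehicle (log2 fold change 1.72 ± 0.12, adjusted p = 4.24e-05), and Spp1, osteopontin, a ligand of αvβ3 and α9β1, averaged 303 ± 21.1 CPM against 878 ± 120.0 CPM (−1.53 ± 0.13, adjusted p = 5.11e-05). With TGFβ1, Npnt, nephronectin, a ligand of α8β1, fell to 0.15 ± 0.0039 CPM against 6.59 ± 0.999 CPM with vehicle (−5.35 ± 0.65, adjusted p = 2.52e-06). Chad, chondroadherin, a cartilage protein that binds α2β1, averaged 753 ± 13.9 CPM with TGFβ1 against 102 ± 8.79 CPM with vehicle (2.88 ± 0.16, adjusted p = 1.94e-07).

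Focal adhesion genes, which link integrins to actin, were described by 50 genes, 46 of them tested. With BMP2 4 rose and 11 fell, with TGFβ1 20 rose and 14 fell, and 14 were higher and 23 lower with BMP2 than with TGFβ1, with median log2 fold changes of −0.15, 0.24 and −0.30. The shares called were 32.6%, 73.9% and 80.4%, where those of all tested genes were 11.5%, 56.2% and 61.4%. The BMP2 count of 15 was 7 without vehicle replicate 1 and also 7 without vehicle replicate 2. Ptk2b, the kinase PYK2, averaged 29.2 ± 0.716 CPM with TGFβ1 against 1.27 ± 0.0998 CPM with vehicle (4.52 ± 0.35, adjusted p = 3.13e-07), and Tln2, a talin that activates integrins, 65.2 ± 6.07 CPM against 21.6 ± 2.23 CPM (1.59 ± 0.13, adjusted p = 3.37e-06). Tns3, a tensin that binds β chains, fell to 143 ± 3.73 CPM with BMP2 (−0.74 ± 0.11, adjusted p = 0.00145) and 56.9 ± 1.47 CPM with TGFβ1 (−2.07 ± 0.12, adjusted p = 2.14e-07), against 239 ± 13.3 CPM with vehicle.

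Genes of latent TGFβ storage and activation, a list of 15 with 13 tested that includes 6 of the integrin genes, counted 2 up and 6 down with BMP2, 7 up and 4 down with TGFβ1, and 3 higher and 7 lower with BMP2 than with TGFβ1. Of the tested genes of the list 61.5%, 84.6% and 76.9% were called, and of all tested genes 11.5%, 56.2% and 61.4%. The median log2 fold changes were −0.38, 0.52 and −0.73. The BMP2 count of 8 was 4 without BMP2 replicate 2, 3 without BMP2 replicate 3, 2 without vehicle replicate 1 and 1 without vehicle replicate 2. Beside Itgav, Itgb3 and Itgb5, those that rose with TGFβ1 were Tgfb1 (0.70 ± 0.14, adjusted p = 0.00148) and the latent TGFβ binding proteins Ltbp1 (2.40 ± 0.19, adjusted p = 3.34e-06), Ltbp2 (4.31 ± 0.16, adjusted p = 1.22e-08) and Ltbp3 (1.00 ± 0.11, adjusted p = 3.3e-05). Beside Itgb8, those that fell with TGFβ1 were Tgfb2 (−1.36 ± 0.14, adjusted p = 2.27e-05), Tgfb3 (−1.71 ± 0.20, adjusted p = 4.89e-05) and Ltbp4 (−1.62 ± 0.27, adjusted p = 0.000521). Tgfb2 also fell with BMP2, to 69.8 ± 10.1 CPM, against 146 ± 0.465 CPM with vehicle (−1.07 ± 0.13, adjusted p = 0.000498).

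Enzymes that build or trim heparan sulphate or shed syndecans, CD44 and other receptors were described by 26 genes, 24 of them tested. With BMP2 3 rose and 4 fell, with TGFβ1 6 rose and 7 fell, and 9 were higher and 5 lower with BMP2 than with TGFβ1, with median log2 fold changes of −0.13, −0.24 and 0.24. The shares called with TGFβ1 against vehicle (54.2%) and between the ligands (58.3%) were close to those of all tested genes (56.2% and 61.4%), so these counts are no result about the list, and that for BMP2 against vehicle was 29.2% against 11.5%. The BMP2 count of 7 was 4 without BMP2 replicate 3 and 2 without vehicle replicate 1 or 2. Mmp14, the membrane protease MT1-MMP that cleaves CD44 and syndecans, averaged 39.7 ± 1.49 CPM with BMP2, 154 ± 8.12 CPM with TGFβ1 and 60.2 ± 2.42 CPM with vehicle. It rose with TGFβ1 (1.35 ± 0.11, adjusted p = 4.35e-06) and fell with BMP2 (−0.60 ± 0.11, adjusted p = 0.00521), the BMP2 call being lost without vehicle replicate 1 (−0.55). Hpse, heparanase, averaged 6.08 ± 0.628 CPM with BMP2, 0.304 ± 0.326 CPM with TGFβ1 and 1.77 ± 0.140 CPM with vehicle, and was called up with BMP2 (1.78 ± 0.37, adjusted p = 0.00837), but not without vehicle replicate 1 (1.86) or 2 (1.70), and down with TGFβ1 (−2.51 ± 0.64, adjusted p = 0.00364). Hpse, like Npnt, lay below the CPM minimum of the filter with TGFβ1.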

How the data were processed

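The deposited file holds whole-number counts per gene name for 7 libraries, with a gene length, and the authors had not normalised them. The submitters' processing notes name build mm10 and the tools cutadapt, STAR 2.4.2a, Subread, featureCounts and DESeq2, without saying what each did. The sources used here do not give the annotation, the strand setting or how multi-mapped reads were counted, so reads in exons that 2 genes share cannot be assigned. The deposited length equals the union exon length of the annotation for 28 of the 33 receptor genes.

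Counts were analysed with edgeR 4.0.16 (R 4.3.3). The filterByExpr function, given the groups, kept 13367 genes, and TMM scaled the libraries. A single quasi-likelihood model with 1 coefficient for each group was fitted to all 7 libraries (4 residual degrees of freedom, common biological coefficient of variation 0.133). Contrasts were tested 2-sided and called below a Benjamini-Hochberg adjusted p of 0.05 across the tested genes. CPM use TMM-scaled totals, and standard errors come from the fit. Alternatives were DESeq2 1.42.0, DESeq2 size factors in edgeR, no filter, only the 2 groups compared, the replicate number as a block, each library left out, and an offset from lowess trends of log2 CPM on transcript length (span 0.15) and GC content (span 0.3) for 13228 genes. The edgeR fit was tried on simulated counts. Of genes changed by a log2 fold of 1, 75.8% were recovered for TGFβ1 against vehicle and 71.1% for BMP2 against vehicle. Of the calls, 7.53% and 4.19% were false. The simulation had 1 common dispersion, no length trend and far fewer changed genes than were called here, so these rates need not hold for the data.

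Receptor genes, pathway lists, marker lists and alternatives were chosen with earlier results of these data known. Values per library are given for genes called with an absolute log2 fold change of at least 1 in any comparison and for the leading genes of each class. The rule for the lists takes up to 4 genes per list, comparison and direction with the smallest p, of which the text names some, chosen for brevity with their values in view. Names were matched to the mm10 annotation for positions.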

Additional observations from a re-analysis of the deposited data

How the results depend on the processing

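With 2 or 3 libraries a group, small changes can go unseen. The number of BMP2 calls against vehicle fell furthest with a library left out. The share of all tested genes called in those smaller fits was not computed, so the drops are no result about the receptor genes or the lists. Leaving out each library gave 18 to 25 called receptor genes for TGFβ1 against vehicle (22 with all libraries), 4 to 11 for BMP2 against vehicle (11) and 22 to 23 for BMP2 against TGFβ1 (24), and 17, 4 and 22 of the called genes were called in all 7 such fits. DESeq2 gave the same call for 26 of 29 genes for BMP2 against vehicle and for 28 of 29 in each of the other comparisons. The labels do not say whether replicate numbers pair libraries. Deviations of same-numbered libraries from their group means had correlations of −0.139 to −0.000945. In groups of 2 libraries these deviations mirror each other, so they cannot decide it. With the number as a block, BMP2 against vehicle had 6 called receptor genes, 17 matrix ligands rather than 26, 8 focal adhesion genes rather than 15, 3 genes of TGFβ activation rather than 8 and 4 heparan sulphate and shedding genes rather than 7. The block lost the BMP2 calls of Itga3, Itgb3, Sdc2, Gpc1 and Gpc4 and the TGFβ1 calls of Itga3, Itgav and Gpc1 against vehicle. Over the libraries left out the ranges for BMP2 against vehicle were 12 to 26, 7 to 18, 1 to 7 and 2 to 8 for these 4 lists, and DESeq2 gave 5 genes of TGFβ activation. For integrin and glypican genes outside the 33, TGFβ1 against vehicle had 1 call, 2 with no filter or the length offset and 1 to 2 with a library left out; BMP2 against vehicle had 2, and 1 to 2 with a library left out; BMP2 against TGFβ1 had 3, and 6 with no filter. Itga10 was called for BMP2 against vehicle with no filter (−0.49). Among receptor genes the direction turned only in values that did not pass the threshold in either fit. With a library left out, Itgb1 lay between −0.055 (without vehicle replicate 1) and 0.22 for TGFβ1 against vehicle. For BMP2 against vehicle Itga6 lay between −0.044 (without BMP2 replicate 1) and 0.22, Itga9 between −0.66 and 0.10 (without vehicle replicate 1), Sdc1 between −0.13 (without BMP2 replicate 1; −0.12 without vehicle replicate 1) and 0.22, and Cd44 between −0.060 (without BMP2 replicate 2 or vehicle replicate 2) and 0.15. For BMP2 against TGFβ1, without TGFβ1 replicate 1 or 3, Itgb8 lay between −0.51 and 0.0098 and Dag1 between −0.22 and 0.071, and with the length offset Itga9 was −0.032 and Itgb1 −0.15. The cause of these shifts was not tested.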

Other observations

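Of 10 integrin and glypican family genes outside the 33, 3 had enough counts to be tested. Itga2b, the platelet partner of Itgb3, averaged 0.511 ± 0.244 CPM with BMP2, 3.89 ± 0.322 CPM with TGFβ1 and 0.626 ± 0.129 CPM with vehicle. It rose with TGFβ1 (log2 fold change 2.60 ± 0.48 SE, edgeR adjusted p = 0.000419) and was lower with BMP2 than with TGFβ1 (−2.84 ± 0.40, adjusted p = 5.72e-05); it lay below the 1.02 CPM minimum of the filter with BMP2 and vehicle, so it was tested only through the TGFβ1 libraries, where it is high. Itgbl1, an integrin β-like secreted protein, averaged 1.55 ± 0.384 CPM with BMP2, 11.3 ± 0.921 CPM with TGFβ1 and 7.88 ± 1.88 CPM with vehicle, and fell with BMP2 (−2.33 ± 0.28, adjusted p = 0.000335). Gpc5 averaged 2.53 ± 0.901 CPM with BMP2, 0.0368 ± 0.0520 CPM with TGFβ1 and 0.134 ± 0.189 CPM with vehicle, with no more than 2 reads in any vehicle library. It passed the filter only through the BMP2 libraries, where it is high, and its call with BMP2 (adjusted p = 0.0081) was lost without vehicle replicate 2 (adjusted p = 0.0953).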
